A study of Mus musculus with 2 samples.

Results

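The basement membrane is a thin sheet of matrix on which epithelial and endothelial cells rest. A network of type IV collagen and a network of laminin, a trimer of an alpha, a beta and a gamma chain, form its frame, nidogen bridges the networks, and the heparan sulfate proteoglycans perlecan and collagen XVIII are bound to them. In healthy liver a continuous basement membrane surrounds vessels and bile ducts, whereas the sinusoids between hepatocytes lack a complete one, and deposition of its proteins along sinusoids is a known feature of fibrosis and of liver tumours. The 10 genes described here encode chains and linkers of this sheet: the type IV collagens Col4a1, Col4a2 and Col4a5, the collagens Col15a1 and Col18a1, the laminin chains Lama5, Lamb1 and Lamc1, the nidogen Nid1 and the perlecan gene Hspg2. They were chosen by name, with earlier results of these data known. Each was read through every probe set that the platform annotation gives to that gene alone. This gave 22 probe sets of the 34945 that name a single gene, for 10 of 18194 genes.

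The samples were precancerous livers of mice labelled Pik3caTg;Kdm3aKO and Pik3caTg;Kdm3aWT. Both carried a Pik3ca transgene specific to hepatocytes, which activates phosphoinositide 3-kinase signalling in those cells. The Kdm3a gene, whose product removes methyl groups from lysine 9 of histone H3, was knocked out in the liver labelled KO and wild type in the other. Mice without the transgene were not among the samples. The labels do not give the age, the sex, the promoter of the transgene or the number of animals behind an array. Each genotype had 1 Affymetrix array, so no test was possible, the number of arrays limits the precision, and every value below describes these arrays. In bulk liver RNA, fewer cells of a type and less RNA per cell cannot be told apart.

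The Kdm3a probe set had a signal of 61.6 in the KO array and 719.9 in the WT array, and whether it lies in the deleted part is not known here. The brightest Pik3ca probe set had 1107 in the KO array and 1069 in the WT array. All other Pik3ca probe sets had lower signals in the KO array. The brightest of these had 675 in the KO array and 745 in the WT array, and another had 554 in the KO array and 808 in the WT array. Hepatocyte genes were bright on both arrays, for example albumin (Alb) with 53356 in the KO array and 44119 in the WT array. Ratios are log2 of KO signal over WT signal, on the scale the authors deposited. A floor of 46.5 replaced lower signals, and a ratio in which 1 of the signals sits at the floor is a bound, written "at least". Genes were compared by their brightest probe set with a mean signal of at least 73.7. Of 11693 such genes, 1048 were at least 2-fold lower in the KO array (8.96%) and 448 at least 2-fold higher (3.83%). The lower genes made up 70.1% of these, a share that became 52.0% when poly-A spike controls set the scale of the arrays and 80.6% when hybridisation controls did. These scalings shifted the median of all genes by 0.19 and -0.14. Repeat readings of a gene by different probe sets had a log2 SD of 0.446 over 4958 genes, the only measure of error at hand, and it covers error within the arrays alone.

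Nid1 and the 3 type IV collagen genes were at least 2-fold lower in the KO array, Lamb1 and Lamc1 were lower by slightly less than 2-fold, and Hspg2, Lama5 and Col18a1 were slightly higher. Of the 9 members that passed the filter on low signal, 4 thus counted as 2-fold lower and 0 as 2-fold higher, against the 8.96% and 3.83% over all genes, and the other 5 differed by less. Col15a1 lay below the floor on both arrays and has no ratio. The median log2 ratio of the 9 members was -0.95, against -0.02 over all genes.

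**Figure D1:**
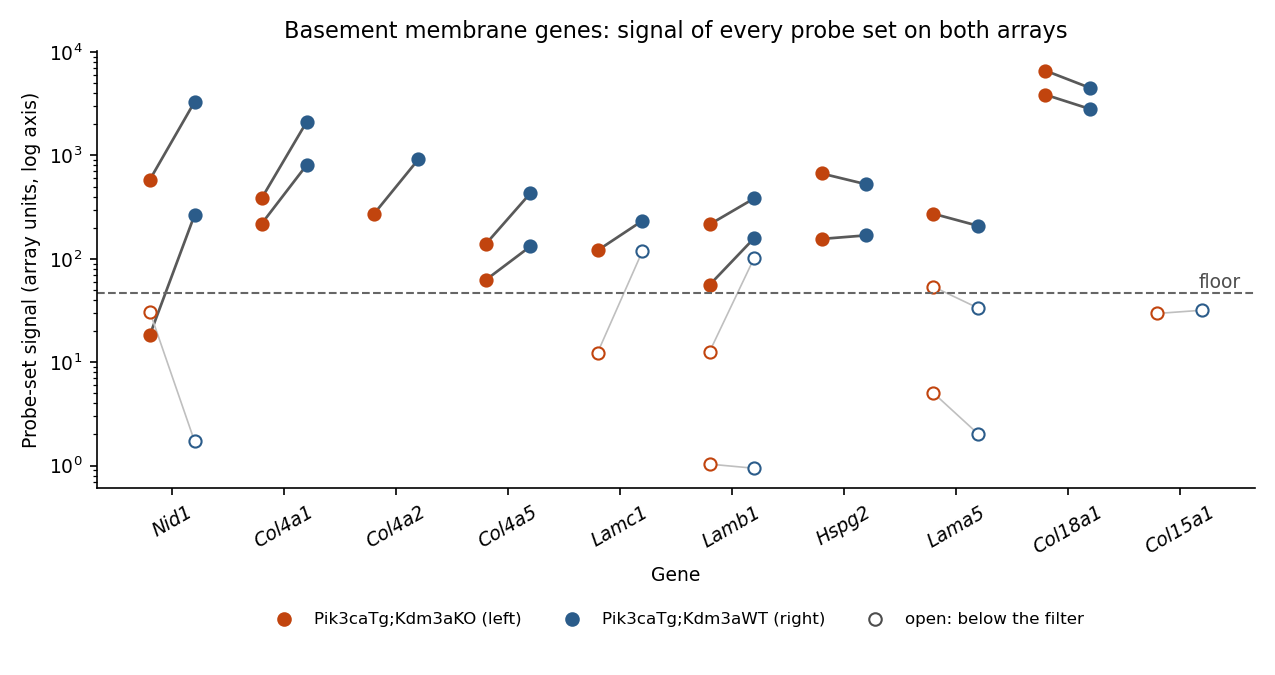
Signal of each of the 22 probe sets of the 10 basement membrane genes (log axis, array units), with the Pik3caTg;Kdm3aKO array on the left and the Pik3caTg;Kdm3aWT array on the right of each pair and a line joining the readings of a probe set. Open points are probe sets below the filter on mean signal and the dashed line is the floor of 46.5. Lines climb to the right for Col4a1, Col4a2, Col4a5, Lamc1, the 2 kept Nid1 probe sets and the Lamb1 probe sets above the floor in the WT array. The dimmest Nid1 line, below the floor on both arrays, falls, and lines run nearly level or slope down for Hspg2, Lama5 and Col18a1.

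Col4a1 and Col4a2 encode the chains of the most widespread type IV collagen, which assembles with alpha 1 and alpha 2 chains in one triple helix. Their genes lie head to head on chromosome 8. In the RefSeq promoter table of build GRCm38.p6 their start bases, 11312826 for Col4a1 on the minus strand and 11312805 for Col4a2 on the plus strand, lay 21 bases apart. Each start lay downstream of the other, so by these starts the genes overlap between those bases and no gap separates them. The windows of 300 bases, 250 before the start and 50 after it, shared 78 bases. Either window holds both starts. That of Col4a2 is shown, and its capitals mark the stretch shared with the Col4a1 window (chr8:11312777-11312854). The windows of Nid1, the member with the lowest ratio, and of Hspg2, a member with a ratio near 0, are shown for comparison. Capitals there mark the GC box (GGGCGG on either strand), a motif bound by Sp1 family factors. All are printed 5′ to 3′ on the strand of the gene.
Col4a2 (GRCm38.p6, chr8:11312555-11312854, plus strand): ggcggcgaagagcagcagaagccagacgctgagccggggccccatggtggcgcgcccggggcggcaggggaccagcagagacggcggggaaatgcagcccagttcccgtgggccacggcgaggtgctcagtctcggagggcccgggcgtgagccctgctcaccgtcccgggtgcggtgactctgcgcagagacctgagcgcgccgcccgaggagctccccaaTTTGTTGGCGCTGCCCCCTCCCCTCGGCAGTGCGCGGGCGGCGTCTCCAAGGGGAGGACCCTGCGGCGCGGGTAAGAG
Nid1 (GRCm38.p6, chr13:13437352-13437651, plus strand): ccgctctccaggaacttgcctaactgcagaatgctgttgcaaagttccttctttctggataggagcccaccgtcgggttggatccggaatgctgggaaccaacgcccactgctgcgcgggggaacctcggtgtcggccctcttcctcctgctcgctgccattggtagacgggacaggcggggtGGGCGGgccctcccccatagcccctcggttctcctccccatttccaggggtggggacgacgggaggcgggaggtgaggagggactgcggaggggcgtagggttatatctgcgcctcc
Hspg2 (GRCm38.p6, chr4:137468553-137468852, plus strand): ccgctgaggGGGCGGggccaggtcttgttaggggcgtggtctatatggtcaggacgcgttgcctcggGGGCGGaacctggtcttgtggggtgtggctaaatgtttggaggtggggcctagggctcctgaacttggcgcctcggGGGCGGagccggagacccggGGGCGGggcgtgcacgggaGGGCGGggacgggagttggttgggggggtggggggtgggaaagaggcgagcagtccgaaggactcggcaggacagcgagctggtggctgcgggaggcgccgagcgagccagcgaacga

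The table held 10 windows for 9 of the members, with separate ones for 2 starts of Col18a1. Lamc1 had no entry. A GC box was present in 8 of the 10 windows, against 35.7% of all 32851 windows of this length in the table. It was absent from the Col15a1 window and from that of the downstream Col18a1 start. Hspg2 had 5, Lama5 had 4 and Nid1 had 1, so the motif was found in windows of members on either side of 0. The CCAAT box (CCAAT on either strand) was present in 6 of 10 windows, against 37.4% of all, and the windows without it were those of Hspg2, Lama5, Col15a1 and the downstream Col18a1 start. The AP-1 motif (TGANTCA, whose complement reads the same) and the letters ACGTG, the core of the motif bound by hypoxia-inducible factors, were found in 0 of the 10 windows, against 7.81% and 19.6% of all. These counts describe letters in the windows, and the Col4a1 and Col4a2 windows are not independent.

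Among the type IV collagens, Col4a1 was 5.44-fold lower in the KO array by its brightest probe set. That probe set had a signal of 387 in the KO array and 2105 in the WT array, a log2 ratio of -2.44. The second Col4a1 probe set had 219 in the KO array and 806 in the WT array (-1.88). Both readings were thus far below the WT array, and they differed from each other by little more than the probe-set SD. Of all 11693 genes, 86 had a lower ratio than Col4a1. Col4a2 was read by 1 probe set, with 270.2 in the KO array and 920.2 in the WT array, a 3.41-fold lower signal (-1.77). The ratios of the paired chains differed by 0.68, with Col4a1 lower, while the dimmer Col4a1 probe set stood close to Col4a2.

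Col4a5 encodes the alpha 5 chain, best known from kidney basement membranes, where its loss causes Alport syndrome. Its brighter probe set had 139 in the KO array and 432 in the WT array, which is 3.12-fold lower (-1.64), and its dimmer one had 62.4 in the KO array and 132 in the WT array (-1.08). All 5 probe sets of the type IV collagen members were at least 2-fold lower in the KO array, against 8.19% of the 19800 kept probe sets (4.43% were at least 2-fold higher). The dimmer Col4a5 probe set passed the filter on mean signal through the WT array, since its KO signal lay below the filter value. The alpha 3, alpha 4 and alpha 6 chains did not pass the filter.

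Nid1, which encodes the bridge between laminin and type IV collagen, had the lowest ratio of the members. Its brightest probe set had 582 in the KO array and 3303 in the WT array, a 5.67-fold lower signal (-2.50), and 81 of all genes had a lower ratio. A second probe set had 18.3 in the KO array, below the floor, and 266 in the WT array, so it was at least 5.72-fold lower. The size of the second bound is set by the floor, so the probe sets share a direction and their sizes cannot be compared. The third Nid1 probe set lay below the floor on both arrays, at 30.8 in the KO array and 1.71 in the WT array, and gives no ratio. Nid2, the other nidogen gene, had 45.9 in the KO array and 134 in the WT array, at least 2.88-fold lower.

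Laminin chains went in different directions. Lamc1 encodes the gamma 1 chain found in most laminins, and its brighter probe set had 121 in the KO array and 233 in the WT array, which is 1.94-fold lower (-0.95). The other Lamc1 probe set, below the filter, had 12.4 in the KO array and 118 in the WT array, at least 2.55-fold lower. Whether Lamc1 counts as 2-fold lower thus rests on the probe set. It also rests on scaling, since the brighter probe set stood at -1.05 with each array centred on its median and at -1.09 with scaling on the hybridisation controls.

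Lamb1 encodes the beta 1 chain, the usual partner of gamma 1. Its brightest probe set, whose name marks it as possibly cross-matching other transcripts, had 215 in the KO array and 385 in the WT array, 1.79-fold lower (-0.84). A second kept probe set had 55.9 in the KO array and 159 in the WT array, 2.84-fold lower (-1.51), and it gives the value of the gene when probe sets with such names are left out. Another, below the filter, had 12.6 in the KO array and 103 in the WT array, at least 2.21-fold lower. The fourth was near 1 on both arrays, at 1.03 in the KO array and 0.942 in the WT array. Every Lamb1 and Lamc1 probe set with a ratio was therefore lower in the KO array, by amounts that differed between probe sets.

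Lama5 encodes the alpha 5 chain, which joins beta 1 and gamma 1 in a laminin of vessels and epithelia. In contrast to those partners it had 273 in the KO array and 208 in the WT array, 1.31-fold higher (0.39). This lay within the probe-set SD of 0. A dimmer Lama5 probe set had 53.6 in the KO array and 33.4, below the floor, in the WT array, and the third lay below the floor on both arrays, at 5.03 in the KO array and 2.02 in the WT array. The log2 ratio of Lama5 minus that of Lamc1 was 1.34, larger than the probe-set SD, with no replicate array to test it.

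Col18a1 and Hspg2 encode heparan sulfate proteoglycans of the sheet, and the end fragment of collagen XVIII is the angiogenesis inhibitor endostatin. Hepatocytes are known to express Col18a1. Its brighter probe set had 6616 in the KO array and 4497 in the WT array, 1.47-fold higher (0.56), and the other had 3869 in the KO array and 2811 in the WT array (0.46). Both thus gave nearly the same small difference, and 1399 of all genes had a higher ratio than Col18a1. Hspg2 had 669.8 in the KO array and 526 in the WT array by its brighter probe set, 1.27-fold higher (0.35), but 156 in the KO array and 169 in the WT array by its dimmer one (-0.12). Its probe sets went both ways and each stood within the probe-set SD of 0. Col15a1, a related collagen of vessel and muscle basement membranes, had 29.6 in the KO array and 31.8 in the WT array, both below the floor.

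**Figure D2:**
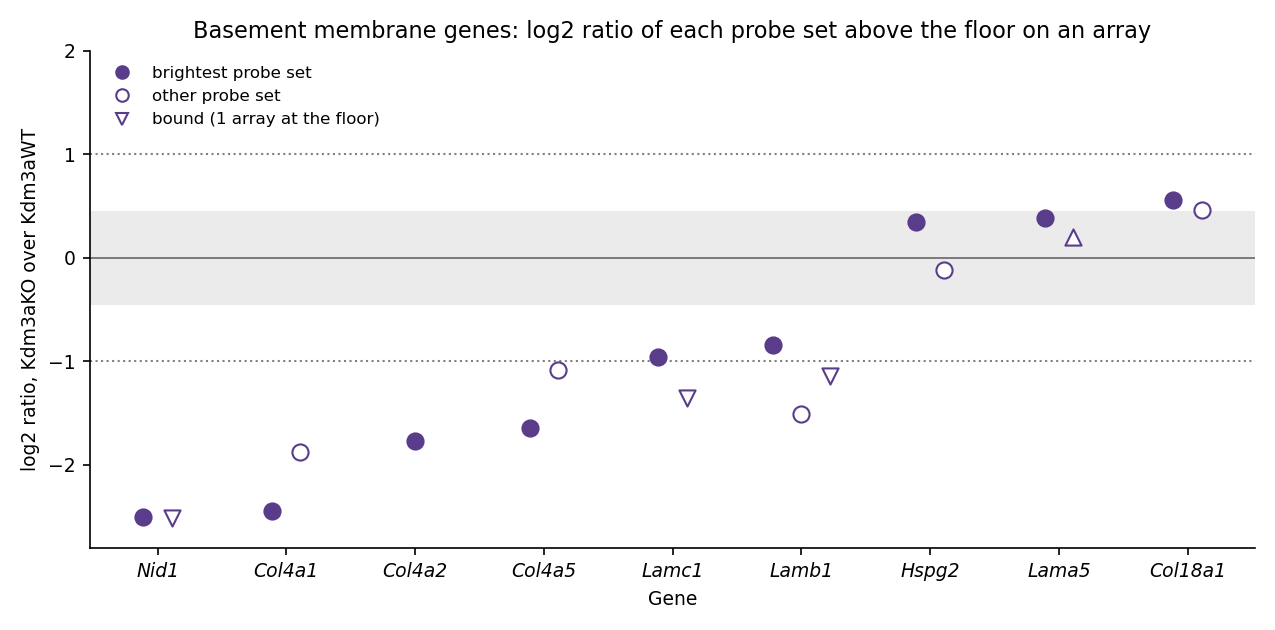
log2 ratio of KO over WT signal for each of the 18 member probe sets above the floor on at least 1 array, by gene. Filled circles are the brightest probe set of a gene, open circles other probe sets, open triangles bounds, the grey band 1 probe-set SD (0.446) around 0 and dotted lines 2-fold. Nid1 and Col4a1 lie lowest, at -2.50 and -2.44, and the probe sets of Hspg2, Lama5 and Col18a1 lie near the band.

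In order of log2 ratio, the members ran Nid1, Col4a1, Col4a2, Col4a5, Lamc1, Lamb1, Hspg2, Lama5 and Col18a1. Neighbours were closer than the probe-set SD between Nid1 and Col4a1, Col4a2 and Col4a5, Lamc1 and Lamb1, and all 3 of the higher genes. Gaps above it lay between Col4a1 and Col4a2 (0.68), Col4a5 and Lamc1 (0.69) and Lamb1 and Hspg2 (1.19). That SD is of single readings, and a difference between readings varies more. By their other kept probe sets, Col4a1 (-1.88) stood near Col4a2 (-1.77), and Lamb1 (-1.51) stood below Col4a5 (-1.08). The smaller gaps thus rest on the choice of probe set. Of 18 probe sets with a ratio, 13 were lower and 5 higher in the KO array. All 10 that were past 2-fold were lower, bounds and probe sets below the filter included. Shares over all probe sets with a ratio were not computed, so these counts have no background. Of the 15 kept ones, 8 were at least 2-fold lower and 0 higher, against 8.19% and 4.43% of all kept probe sets. The filter, the same for all kept probe sets, was on the mean of both arrays. Some of the 8 had KO signals below the filter value and passed it through the WT array. They were a Nid1 probe set, with 18.3 in the KO array and 266 in the WT array, and 1 each of Lamb1 and Col4a5. The Lamb1 one had 55.9 in the KO array and 159 in the WT array, and the Col4a5 one had 62.4 and 132. Probe sets of the same gene are repeat readings, so these counts are not of separate results. Of the 6 members with several kept probe sets, 5 had them all in the same direction, the exception being Hspg2. The share over all genes with several kept probe sets was not computed.

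**Figure D3:**
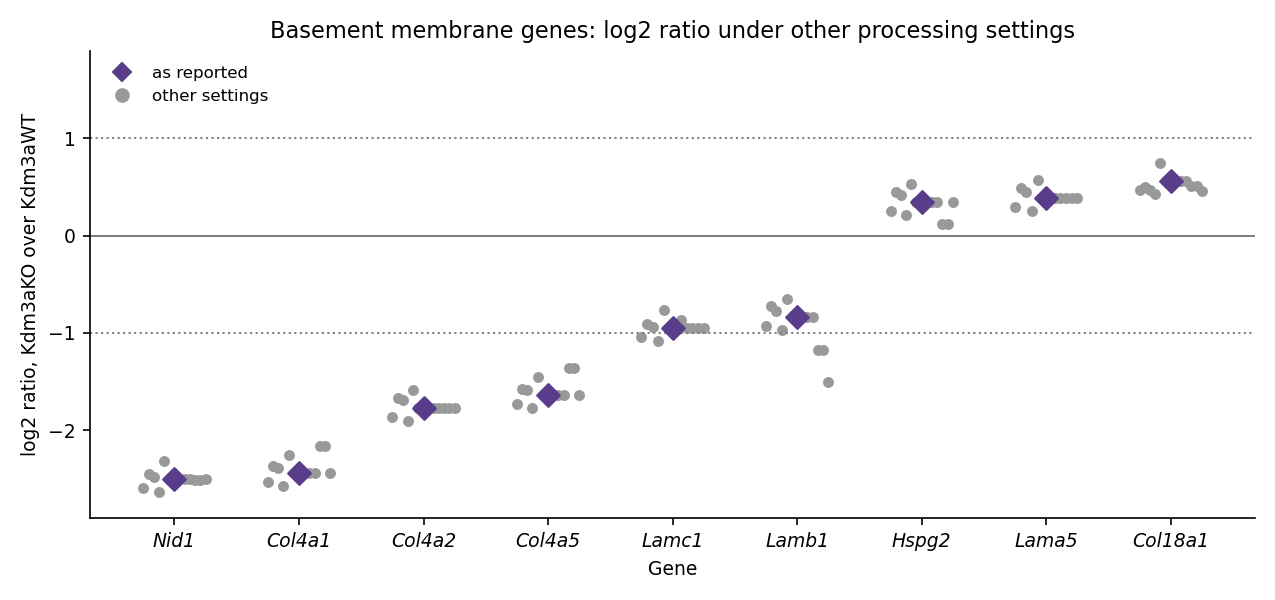
log2 ratio of KO over WT signal of the 9 measured basement membrane genes as reported (diamonds) and under the other settings of scaling, filter, floor and choice of probe sets (grey points), with dotted lines at 2-fold. Nid1, Col4a1, Col4a2 and Col4a5 stay below the lower line, Lamc1 and Lamb1 have points on both sides of it, and Hspg2, Lama5 and Col18a1 stay between 0 and the upper line.

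Among all genes, lower ratios were more common at low signal: in the dimmest of 5 equal groups 14.8% were at least 2-fold lower and 8.17% higher, and in the brightest 4.40% were lower and 4.49% higher. The members were therefore also set beside genes of similar signal. Nid1 and Col4a1 fell in the second brightest group, where 5.35% of genes were at least 2-fold lower and 0.81% and 0.94% had a lower ratio than these genes. Col4a2 was in the middle group, where 7.99% were at least 2-fold lower and 2.01% stood below it. Col4a5, Lamb1 and Lamc1 were in the second dimmest, where 12.2% were at least 2-fold lower, and 4.23%, 15.3% and 13.1% stood below them.

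**Figure D4:**
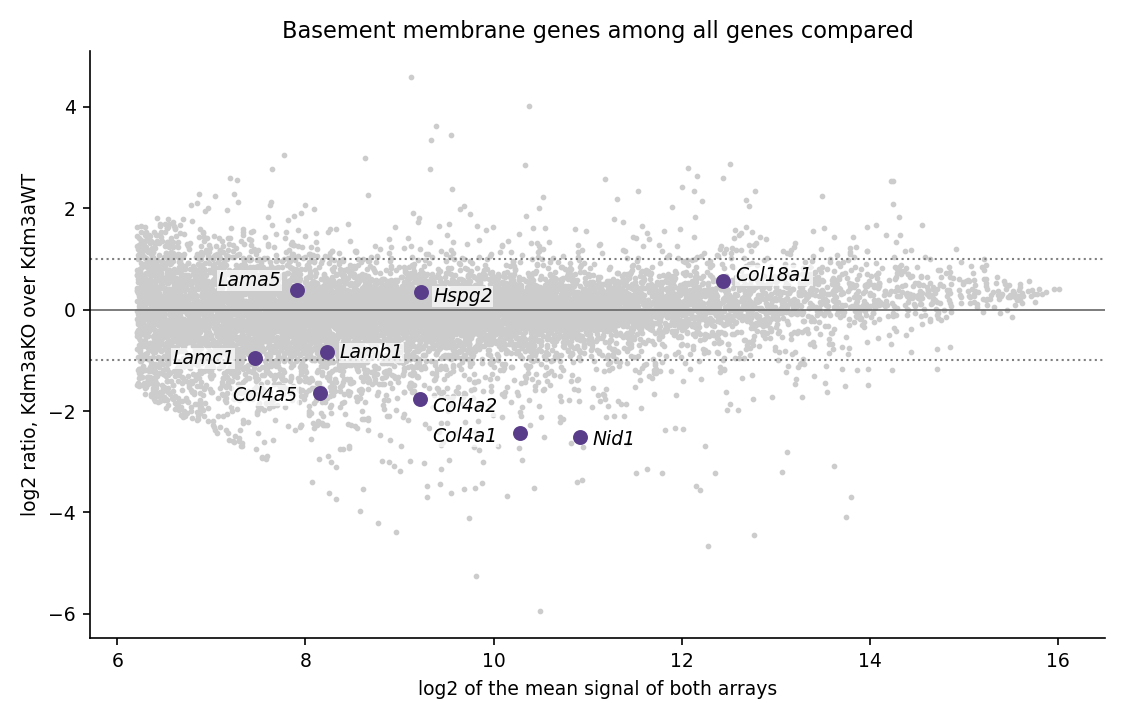
log2 ratio of KO over WT signal against the log2 mean signal of both arrays for all 11693 genes compared (grey), with the 9 measured basement membrane genes in purple and dotted lines at 2-fold. Nid1 and Col4a1 stand at the lower edge of the cloud at medium signal, and Col18a1, Hspg2 and Lama5 stand inside it.

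Other components of the basement membrane went both ways. Of 29 listed genes, 16 were measured. In the KO array 5 of these were 2-fold lower or more and 1 was 2-fold higher, and their median log2 ratio was -0.46. Sparc, a collagen-binding matrix protein, was lowest at -1.85, with 1175 in the KO array and 4249.8 in the WT array. Its kept probe sets ranged from -1.85 to 0.62, and their mean was -0.98. The proteoglycan agrin (Agrn) had 324 in the KO array and 946 in the WT array (-1.55). Besides Nid2, the other lower genes were Smoc2 (-1.29), a SPARC relative, and the laminin alpha 2 gene Lama2 (-1.26).

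Lama3, the alpha chain of an epithelial laminin, was the gene 2-fold higher, with 167 in the KO array and 82.4 in the WT array (1.02). This value lay at the threshold and under it with median centring (0.93), loess (0.97), scaling on the hybridisation controls (0.89) and the floor at the 60th percentile (0.39), and Lama3 was not measured with the filter at the 70th percentile or without cross-matching probe sets. The other laminin genes within 2-fold were Lamb2 (-0.84), Lamb3 (-0.51), Lamc3 (-0.41) and Lama4 (-0.33). Peroxidasin (Pxdn), which crosslinks type IV collagen, stood at -0.61 and fibulin 2 (Fbln2) at -0.27. The remaining measured genes had positive ratios below 2-fold, namely Smoc1 (0.19), netrin 4 (Ntn4, 0.39), Hmcn1 (0.48) and Tinagl1 (0.85). The kept Ntn4 probe sets ranged from -0.45 to 0.39.

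Among 17 measured receptors of basement membrane proteins, the KO array had 4 that were 2-fold lower or more and 0 that were higher. The median was -0.20. The collagen receptor kinase Ddr1 was lowest, with 221 in the KO array and 2529.5 in the WT array (-3.51), though its kept probe sets ranged from -3.51 to 0.20, and without cross-matching probe sets Ddr1 stood at 0.20. Integrin alpha 6 (Itga6), a laminin receptor subunit, had 124 in the KO array and 979 in the WT array (-2.98), and its other kept probe set stood at -2.13. Cd151 (-1.21) was also among the 4 lower genes, though its kept probe sets ranged from -1.21 to 1.04. The shared integrin subunit Itgb1 was within 2-fold, with 2686 in the KO array and 3079 in the WT array. It was singled out after its value was seen. The highest ratios were those of the syndecans Sdc4 (0.71) and Sdc2 (0.46), heparan sulfate proteoglycans of the cell surface.

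Of 14 measured genes for collagen modification, folding and secretion, 3 passed 2-fold downwards in the KO array and 0 upwards, and the median was -0.52. The collagen chaperone Serpinh1 was lowest, with 259 in the KO array and 799 in the WT array (-1.62), followed by Crtap (-1.28), a subunit of the prolyl 3-hydroxylase complex. The secretion factor Mia3 (0.59) and the isomerase Ppib (0.09) were highest. Of 18 measured enzymes that cut basement membrane proteins and their inhibitors, 8 passed 2-fold downwards and 1 upwards, and the median was -0.77. The type IV collagenase gene Mmp2 had 34.7 in the KO array, below the floor, and 573 in the WT array, at least 12.3-fold lower. The plasminogen activator gene Plat stood at -3.01. At the other end were the second type IV collagenase gene Mmp9 (1.33) and the heparan sulfatase gene Sulf2 (0.47). The kept Sulf2 probe sets ranged from -0.41 to 0.47.

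Fibrillar and microfibrillar collagens and their partners had a median of -1.66, with 7 of 13 measured genes past 2-fold downwards in the KO array and 0 upwards. Col3a1 had 732 in the KO array and 8624 in the WT array (-3.56) and Col1a2 had 571 in the KO array and 5295 in the WT array (-3.21). Col5a3 (0.04) and Fn1 (-0.01) were highest, though the kept Fn1 probe sets ranged from -0.01 to 1.07. The lowest fibrillar collagens thus had lower ratios than Nid1 and Col4a1, and the difference between the lists was not tested.

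Markers of cell types that a liver sample can hold were set beside the members. For stellate cells and fibroblasts, 9 of 19 measured markers passed 2-fold downwards in the KO array and 0 upwards, with ratios from -2.37 for Vim and -2.13 for Acta2 to 0.03 for Reln and 0.11 for Hgf. Their median was -0.99. The summed signal, to which bright markers add most, was 27568 in the KO array and 44715 in the WT array. For cholangiocytes, 11 of 11 measured markers passed 2-fold downwards, from Cd24a (-3.40) and Tspan8 (-2.96) to Ehf (-1.18) and Sox9 (-1.06). Their summed signal was 1266 in the KO array and 7139 in the WT array. The kept Tspan8 probe sets ranged from -2.96 to 0.69. By the mean of all kept probe sets, 10 of 11 markers passed 2-fold. Many of these markers were dim in the KO array: a floor at the 60th percentile let 4 of 11 pass 2-fold, with a median of -0.85 in place of -1.75, and the filter at the 70th percentile left 4 markers, all past it. For endothelial cells, 1 of 19 passed 2-fold downwards, Vwf (-1.20), and 18 of 19 were below 0, with a median of -0.33. Egfl7 (-0.70) came next, though its kept probe sets ranged from -0.70 to 0.76. Pecam1 (-0.0037) and Clec4g (0.41) were highest. The summed signal of the endothelial markers was 14424 in the KO array and 17181 in the WT array.

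Of 16 macrophage markers, 7 passed 2-fold downwards in the KO array, among them Gpnmb (-4.12) and Trem2 (-2.38). Another 3 passed it upwards, among them Cd163 (at least 23.9-fold) and Marco (at least 6.01-fold), both below the floor in the WT array. By sign alone, 11 of the macrophage markers were below 0 and 5 above it. Their summed signal was 44585 in the KO array and 68772 in the WT array. Of 13 measured hepatocyte markers, all 13 were above 0, and 3 passed 2-fold upwards in the KO array and 0 downwards. Their ratios ran from Ahsg (0.18) and Cyp2e1 (0.26) to G6pc (1.20) and Tat (1.22). Their summed signal was 615045 in the KO array and 443936 in the WT array. The part of any of these cell types in the ratios of the basement membrane genes was not tested. The 3′ over 5′ signal ratio of the Gapdh control was 0.65 in the KO array and 0.70 in the WT array, and that of the Actb control was 1.99 in the KO array and 1.85 in the WT array. The 3 control probe sets for 18S ribosomal RNA were 1.74 to 1.89 times as bright in the KO array, the brightest with 36270.3 in the KO array and 20888 in the WT array. The part of this difference in the ratios was not tested.

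**Figure D5:**
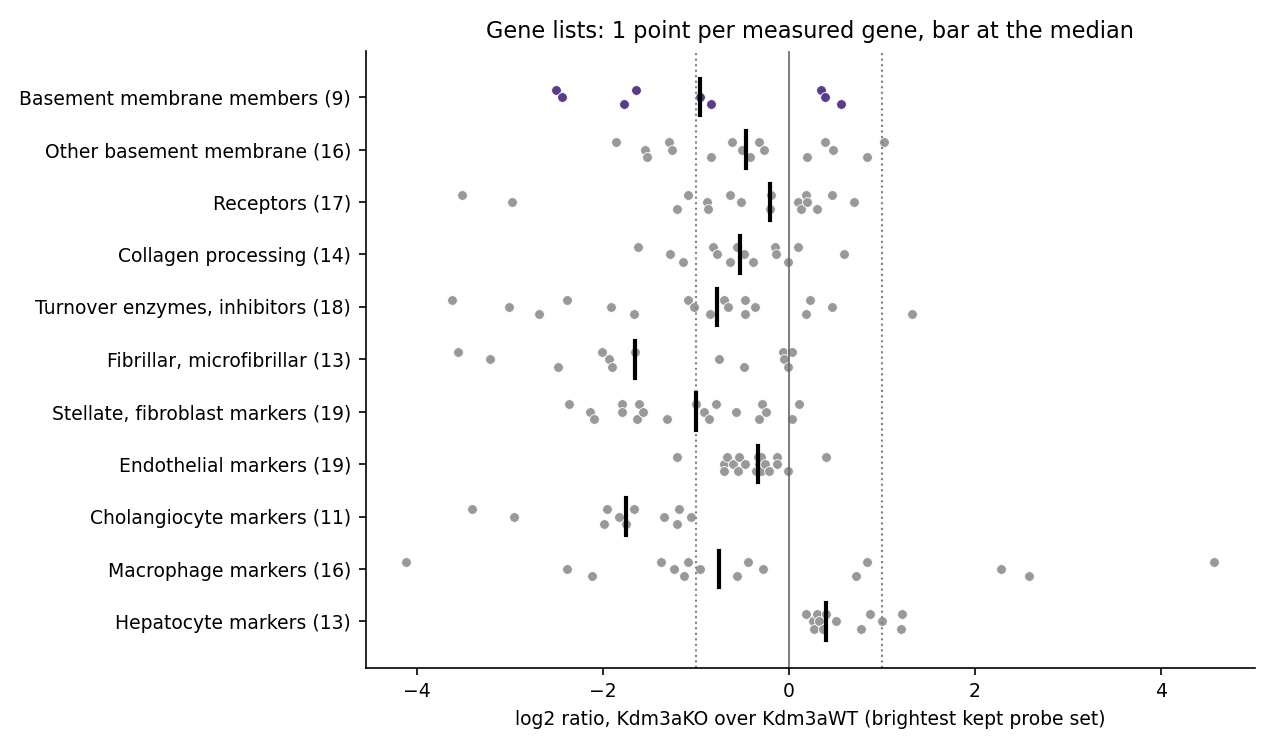
log2 ratio of KO over WT signal by gene list, 1 point per measured gene (number in brackets), with a bar at the median and dotted lines at 2-fold. The basement membrane members (purple) form a lower and a higher group with a median of -0.95, the fibrillar and microfibrillar list has a median of -1.66 and the endothelial markers one of -0.33.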

How the data were processed

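Per the labels' protocols, 250 ng of total liver RNA was labelled with biotin as cRNA for Affymetrix arrays. The authors deposited 1 intensity per probe set and array on a linear scale. MAS5 is named in the submitters' processing notes, with settings, detection calls and build not given in the sources used here. With 2% trimmed from either end, each array had a mean of 500.004, so both had been scaled alike. Of 45101 probe sets, 34945 named 1 gene, 932 named several, 64 were controls and 9160 had no name here; those naming several or none were not used. Of the 34945, 34741 matched RefSeq (GRCm38.p6) by gene ID, for current symbols.

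The floor was the 40th percentile of all signals and the filter the median of mean signals. The filter left 19800 probe sets and 11693 genes, and 15 of the 22 member probe sets. Log2 ratios were computed in Python 3.11.15 with pandas 2.3.3 and statsmodels 0.14.6, and the steps were tested on simulated data. With 1 array per genotype there was no test, so differences of at least 2-fold were counted. Signals of different probe sets were not compared as amounts of RNA. They were summed over marker lists and used to choose the brightest probe set of a gene and the groups of similar signal. Members, lists, floor, filter and size rule were chosen with earlier results of these data known. The text names all members, all measured genes of the other basement membrane list, the 2 lowest and 2 highest genes of each other list, Kdm3a and Pik3ca. Alb, Itgb1, Cd151 and the unmeasured genes in the closing section were added after their values were seen. Promoter sequences are from RefSeq. Alternatives covered scaling (medians, quantile, loess with a span of 0.3, spike controls), filter, floor, choice of probe sets and size rule. Probe sets called cross-matching are those with names ending in _s_at, _x_at, _a_at or _f_at. The class goes by name alone, and whether each matches other genes was not checked.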

Additional observations from a re-analysis of the deposited data

How the results depend on the processing

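The 4 members counted as 2-fold lower, Nid1, Col4a1, Col4a2 and Col4a5, stayed past 2-fold under all 13 alternatives to scaling, filter, floor and choice of probe sets. Their log2 ratios ran from -2.64 to -2.32, -2.58 to -2.16, -1.90 to -1.58 and -1.77 to -1.36. The filter and floor alternatives could not move these 4 values, because the signals of their brightest probe sets lay above each floor and filter. Leaving out cross-matching probe sets did not move them either. Col4a2 has 1 probe set, so only scaling could move it. Col18a1 (0.42 to 0.74), Lama5 (0.26 to 0.57, in 12 alternatives) and Hspg2 (0.12 to 0.53) stayed positive and below 2-fold. Lamc1 ranged from -1.09 to -0.77 in 12 alternatives. Lamb1 ranged from -1.51 to -0.65, and its -1.51 came from leaving out cross-matching probe sets, which also set the median of the members at -1.51. The filter at the 70th percentile left 7 members, without Lama5 and Lamc1, with a median of -1.64. The number of members at least 2-fold lower was 4 or 5 and 0 were higher. At 1.5-fold 6 members were lower and 0 higher, against 2038 and 1296 of all 11693 genes, and at 3-fold 4 were lower and 0 higher, against 409 and 102.

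The count of other basement membrane genes that were higher, 1 as reported (Lama3), was 0 with median centring, loess, scaling on hybridisation controls, the 70th percentile filter, the 60th percentile floor, without cross-matching probe sets and at 3-fold, and 2 with scaling on poly-A controls and at 1.5-fold. The lower ones numbered 3 with the 70th percentile filter or the 60th percentile floor and 1 at 3-fold. Turnover genes that were higher numbered 0 with that filter, that floor and at 3-fold. At 1.5-fold, 6 collagen processing genes were lower and 1 higher, and 7 receptor genes were lower and 1 higher. At 3-fold, 1 collagen processing gene and 2 receptor genes were lower. The ratio of Ddr1, -3.51 as reported, was 0.20 without cross-matching probe sets, the only gene of the lists past 2-fold whose direction turned. With the 60th percentile floor Nid2 stood at -0.07, Lama2 at -0.63 and Mmp9 at 0.05. Cholangiocyte markers lower ranged from 4 to 12. Over all genes, 772 were lower and 713 higher with poly-A scaling. Of 490 further values, 460 kept within the probe-set SD or 1.5 times the count. No paired analysis was possible because each genotype had 1 array. Signals near the floor carry little above background, which limits Col15a1 and the dimmer Lamb1, Lamc1 and Nid1 probe sets.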

Other observations

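Several basement membrane genes that did not pass the filter had brightest probe sets near or below the floor of 46.5. Col4a3, whose product forms a network with those of Col4a4 and Col4a5, had 13.5 in the KO array and 57.3 in the WT array. Col4a4 had 69.8 in the KO array and 21.5 in the WT array, and Col4a6 had 9.63 in the KO array and 27.3 in the WT array. Egflam, which encodes the dystroglycan ligand pikachurin, had 6.78 in the KO array and 71.3 in the WT array. The laminin gene Lama1 had 59.8 in the KO array and 46.7 in the WT array.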
